A study of Drosophila melanogaster with 21 samples.

Results

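Wild-type LS2 was compared with GFP in S2 cells, a fly line derived from embryos and resembling macrophage-like blood cells (hemocytes). The comparison contrasts 6 of the 21 libraries of the series, chosen by the construct that the labels name. They are 3 libraries of cells induced to make wild-type LS2 (WT) and 3 of cells induced to make GFP and no LS2 (GFP). In both groups the induced gene had been integrated into the genome, integrants had been selected with hygromycin, and the cells had been kept in 500 µM copper sulfate for 53 h to switch the gene on, so that copper and selection are shared. The other 15 libraries carry altered LS2 under the same treatment: d38 (W62A, D63A and I64A), Beta5 (K192E and R194E), GSlinker (the stretch from H197 to P233 replaced with GGS motifs), RRM2 (F285D and F287D) and SF1 (E370K and D371K). Length minus effective length, over transcripts longer than 2000 nt, had an SD of 68.4 to 88.6 in GFP, WT, d38 and RRM2 libraries. In Beta5, GSlinker and SF1 libraries it was 278 to 379, so these groups also differ from WT and GFP in library pattern. The altered form in those groups cannot be told apart from that pattern. The main tests of genes, isoforms and events were fitted over all 21 libraries, with a mean for each group and the contrast WT minus GFP. Their estimate of spread therefore also draws on the 15 libraries with altered LS2. The labels give no separate cultures or lines within a construct. The p-values below thus measure the spread between libraries, which may be technical, and the construct cannot be told apart from the line that carries it. The study asks how changes in LS2 affect its control of alternative splicing. WT against GFP compares cells induced to make the unaltered protein with cells induced to make GFP.

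LS2 is a fly relative of U2af50, the large subunit of the U2AF pair. U2AF binds the polypyrimidine tract and the AG at the 3′ end of an intron, with SF1 at the branch site, and so marks where the intron ends before the U2 snRNP is recruited. LS2 is known as a gene expressed mainly in the testis that arose from a U2af50 copy and can change the choice of splice sites. The induced gene therefore adds a testis factor to a blood-like line.

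LS2 (FBgn0034834, chromosome 2R, 23210130-23211539 in BDGP6) stood at 1.46, 1.49 and 3.97 TPM (an abundance per length scaled to a fixed library total) in GFP replicates 1 to 3. It stood at 6112, 6660 and 6070 TPM in the WT replicates. The groups were far apart, and LS2 took 0.715%, 0.752% and 0.739% of all estimated counts in the WT libraries. On the log2(TPM + 1) scale the difference was 10.97, and 3 libraries against 3 cannot give a p below 0.1, which is what the exact permutation test (two-sided) returned.

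Library totals ran from 26950011 to 33896072 estimated counts in GFP and from 28961081 to 34670761 in WT, so depth overlapped between the groups. Log CPM (counts over the library total) correlated at 0.994 to 0.996 within a group and at 0.978 to 0.980 between the groups across genes, which are not independent replicates. No library stood apart from its group. As markers of the line, the hemocyte GATA factor srp, the scavenger receptor crq and the matrix peroxidase Pxn were present in all 6 libraries, srp at 88.3 to 105 TPM, whereas the hemocyte receptor NimC1, another marker listed for the line, was below the count filter.

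Splicing was described through 8477 events built from annotated transcripts, each the choice between 2 forms of an intron or exon. Inclusion is the share of the TPM of both forms that belongs to the form with the exon included, the intron retained, the nearer of 2 alternative splice sites (the one that makes the shorter intron), or the upstream first or last exon. Of these events, 986 differed between WT and GFP (11.6% of all tested, limma with Benjamini-Hochberg adjusted p under 0.05), in 612 genes, 566 with higher inclusion in WT (6.68%) and 420 with lower (4.95%). The median size of a called change was 13.1 percentage points. The WT libraries all lay above, or all below, the GFP libraries in 2476 of the 8477 events, so absence of overlap is common among events too. Isoforms that share an event can also differ elsewhere, so an event is a summary of whole annotated transcripts and not a count of junction reads.

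The classes are given in turn, by direction. Among retained introns 145 of 1271 rose (11.4%) and 76 fell (5.98%), making 17.4% called in that class, and among alternative 3′ splice sites the nearer site rose in 117 of 1504 (7.78%) and fell in 67 (4.45%), together 12.2%. Upstream last exons rose in 40 of 320 (12.5%) and fell in 13 (4.06%), together 16.6%. Of the cassette exons 113 of 1443 rose (7.83%) and 108 fell (7.48%), together 15.3%, and of the alternative first exons 90 of 2191 rose (4.11%) and 84 fell (3.83%), together 7.94%. Alternative 5′ sites had 61 of 1748 rising (3.49%) and 72 falling (4.12%), together 7.61%. Events of 1 gene share transcripts and are not independent, and no test of the difference in direction between classes was made. With the 6 libraries fitted alone the count of called events was 391 in place of 986, and in that fit inclusion rose in 51 and fell in 22 of the 3′ site events and rose in 50 and fell in 31 of the retained introns.

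**Figure D1:**
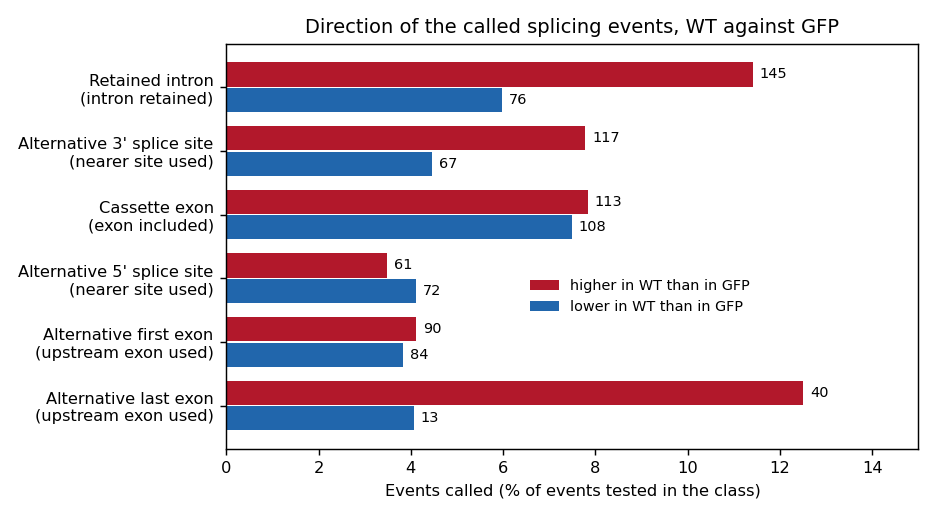
Splicing events called between WT and GFP as a percent of the events tested in each class, with red bars for higher and blue bars for lower inclusion in WT, and the count of events at the end of each bar. Retained introns (145 against 76), alternative 3′ sites (117 against 67) and last exons (40 against 13) have the longer red bars, and the cassette exons (113 against 108) have bars of similar length.

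The competing 3′ splice sites can be ordered by the distance between them, with no test of the difference between distances. Sites 3 nt apart, the tandem AG pairs, gave 10 events that rose and 10 that fell among 356. Other pairs up to 30 nt apart gave 51 that rose and 21 that fell among 592, and pairs over 30 nt apart gave 56 and 36 among 556. For retained introns the balance was 57 to 33 among 614 introns of 31 to 100 nt, 49 to 20 among 352 introns of over 100 and up to 300 nt, and 39 to 23 among 304 longer ones.

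The 3′ site events with the largest changes were in wge, pyd and RpL15. In wge (winged eye, a chromatin protein), the nearer site stood at 17.9%, 30.3% and 24.9% inclusion in GFP replicates 1 to 3 and at 79.0%, 70.5% and 84.9% in WT. The groups did not overlap, and the rise from 24.4% ± 6.19 to 78.1% ± 7.27 (SD, n = 3) passed limma's test at an adjusted p of 5.7e-06. The sites compete for an intron on the minus strand of chromosome 3R, at 22716665-22716933 or 22716632-22716933, and the 33 nt between them lie inside the coding span of both forms. The nearer site also had a mean of 57.4% to 74.9% in the 5 groups with altered LS2.

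The cell junction scaffold pyd, the fly relative of ZO-1, moved the other way. Its nearer site was at 100%, 90.7% and 100% in GFP and at 47.8%, 38.2% and 50.9% in WT, adjusted p 0.00296 by limma. The 127 nt between these sites (chromosome 3R, minus strand, introns 8833739-8833974 and 8833612-8833974) are also within the coding span. Here the groups with altered LS2 were spread, from 66.1% in SF1 to 98.1% in GSlinker.

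RpL15, a protein of the large ribosomal subunit, changed at both a 3′ site and a retained intron in its 5′ UTR, on the plus strand of chromosome 3L at 27267284. The nearer 3′ site, 94 nt away from the other, was used in 6.67%, 53.3% and 36.2% in GFP and in 86.4%, 72.8% and 90.7% in WT. Retention of the whole intron to 27267607 stood at 4.18%, 33.6% and 22.8% in GFP and at 80.4%, 66.1% and 82.6% in WT. The GFP libraries were widely spread but stayed below WT in both, and both are set against the same transcript, RpL15-RG, so they are not independent. Limma's adjusted p was 0.00182 for the site and 0.000379 for the intron, and both calls were lost when the 2 groups were fitted alone.

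Vha55, the B subunit of the proton pump V-ATPase, had the retained intron with the largest change among those named. Its 78 nt intron in the 5′ UTR (chromosome 3R, minus strand, 12627562-12627639) was retained in 19.5%, 36.8% and 41.7% in GFP and in 93.5%, 88.1% and 92.8% in WT. All WT libraries were above all GFP libraries, adjusted p 0.000152 by limma, while the summed level of the gene was not called (log2 fold change -0.17 ± 0.07, SE). A retained intron in DIP1, which encodes a double-stranded RNA binding protein, stood at 37.0%, 35.2% and 9.74% in GFP and at 100%, 100% and 41.8% in WT. One WT library was close to GFP there, and the call (adjusted p 0.038) was lost in 8 of the 13 other settings.

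Among cassette exons, wdb changed most. The 169 nt exon of wdb (widerborst, a regulatory subunit of the phosphatase PP2A) in the 5′ UTR, on chromosome 3R at 27580157-27580325, was included in 0%, 13.4% and 8.01% in GFP and in 83.1%, 79.4% and 78.7% in WT. The rise from 7.14% ± 6.75 to 80.4% ± 2.40 (SD, n = 3) had an adjusted p of 0.00421 by limma, and the gene's summed level was not called (-0.10 ± 0.09, SE). Inclusion among the altered forms ran from 10.4% in d38 through 39.3% in RRM2 and 45.8% in GSlinker to 78.8% in Beta5 and 84.6% in SF1. The higher means, of GSlinker, Beta5 and SF1, come from groups whose library pattern differs from that of WT and GFP. Pattern and altered form cannot be told apart there.

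The other cassette exons named both went down, and both are longer than the wdb exon. The 945 nt exon of DIP1 (chromosome X, minus strand, 21628848-21629792) fell from 80.6%, 76.7% and 79.8% to 14.3%, 19.0% and 14.1%. The 407 nt coding exon of LRR, a leucine-rich repeat protein (chromosome 2R, minus strand, 7677998-7678404), fell from 88.3%, 87.6% and 87.9% to 41.3%, 35.4% and 41.7%. Replicates were close to each other in both, the groups did not overlap, and limma's adjusted p was 1.8e-09 for DIP1 and 1.9e-07 for LRR. Both exons were at intermediate means in the groups with altered LS2, between 26.8% and 58.2% for DIP1 and between 47.2% and 65.9% for LRR.

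**Figure D2:**
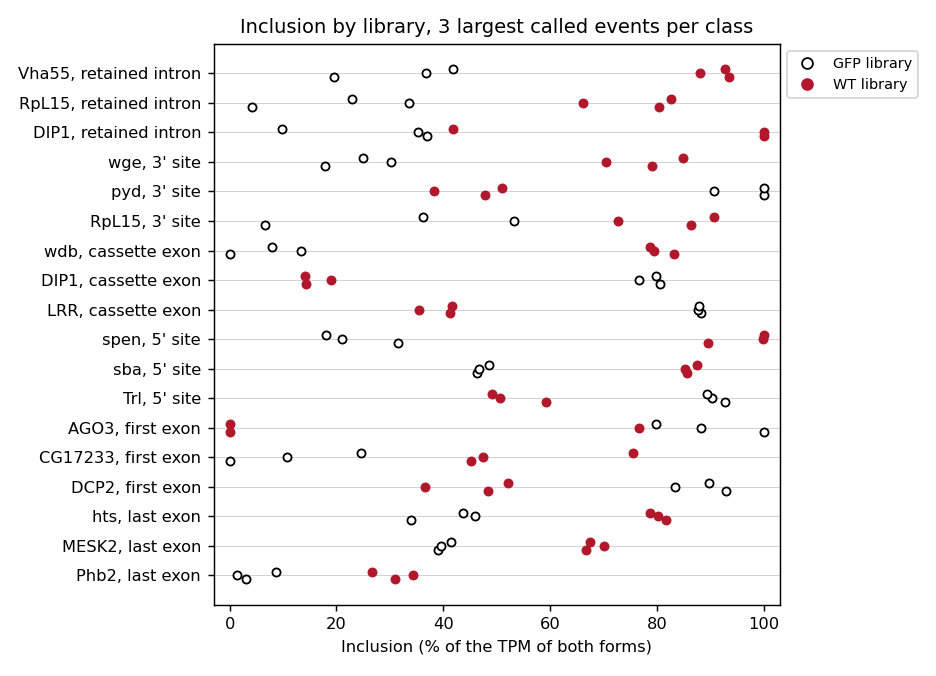
Inclusion in each library, as a percent of the TPM of both forms, for the 3 largest called events of each class, with open circles for GFP and red circles for WT. The wdb exon moves from at most 13.4% to at least 78.7%, and AGO3 and the DIP1 intron each have 1 WT library that lies with the GFP libraries.

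At 5′ splice sites, spen (split ends, an RNA-binding transcriptional regulator) used the nearer of 2 sites 506 nt apart at 31.6%, 20.97% and 18.1% in GFP and at 89.6%, 99.9% and 100% in WT. In RRM2 the mean was 33.0%, against 89.1% to 100% in the other 4 altered forms. The nearer site of sba rose from 47.2% ± 1.20 to 86.1% ± 1.23 (SD, n = 3), and that of Trl, which encodes the GAGA factor, fell from 90.8% ± 1.67 to 53.0% ± 5.45 (SD, n = 3). The 66 nt that differ in Trl are in the 5′ UTR (chromosome 3L, 14757842-14757907), and Trl shares its locus with Tsen34 on the same strand.

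First and last exons are the ends of transcripts, which a short-read estimate resolves less directly than an internal exon. The upstream last exon of hts (adducin, a membrane skeleton protein) rose from 33.9%, 46.0% and 43.7% to 81.7%, 80.2% and 78.7%. That of MESK2 rose from 39.96% ± 1.33 to 68.1% ± 1.79 (SD, n = 3). Phb2, a prohibitin of the inner mitochondrial membrane, rose from 4.41% ± 3.86 to 30.7% ± 3.80 (SD, n = 3) for its upstream last exon, but it overlaps the antisense gene CG15097, which was itself higher in WT by 1.92 ± 0.08 on the log2 scale (SE), and strand is not stated for the counting. The upstream first exon fell in AGO3, a Piwi-class Argonaute, and in DCP2, the mRNA decapping enzyme, and rose in CG17233. AGO3 was at 100%, 88.2% and 79.8% in GFP and at 0.000766%, 76.7% and 0.00854% in WT, and its call was lost in 5 settings, as that of CG17233 was in 4.

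At the level of whole isoforms, usage changed in 778 of 4464 genes tested (17.4%, limma on shares with a Simes p per gene and Benjamini-Hochberg adjustment). The isoform CG6928-RD took 2.29%, 4.32% and 2.68% of its gene in GFP and 40.8%, 47.8% and 44.3% in WT, while CG6928-RB fell from 84.0% to 43.7% on average. These isoforms differ in the 3′ end of 1 intron (chromosome 3L, plus strand), which closes at 12007493 in RD and at 12007615 in RB. The rising form thus has the nearer 3′ site.

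CG1674-RE, near 0 in every GFP library, took 30.5%, 31.5% and 36.7% of its gene in WT, and CG1674-RJ fell from 63.1%, 73.5% and 76.2% to 28.8%, 33.8% and 29.2%. RE has an extra exon on chromosome 4 between 232279 and 232848, where RJ has a single intron from 231978 to 234264. ATP8B, a P4-type flippase that moves phospholipids across membranes, showed the reverse structure. Its isoform RF, in which 1 intron from 12073617 to 12075173 (chromosome 3R) replaces a pair of introns and an exon, rose from 15.2%, 21.8% and 23.7% to 56.5%, 58.6% and 65.0%.

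Fs(2)Ket encodes importin beta, the carrier of nuclear import. Its isoform RA fell from 53.8% ± 3.20 to 14.1% ± 8.27 (SD, n = 3) and RC rose from 7.01% to 35.4%. Both have the same coding exons and start and differ in the transcript end, at 20739764 for RA and 20750941 for RC on chromosome 2L. CG6726-RB fell from 80.4% ± 9.01 to 42.1% ± 25.2 (SD, n = 3), but WT replicate 3 stood at 70.9%, inside the GFP range, and that call was lost in 5 settings.

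A change in isoform use and a change in level were separate measurements. Of the 778 genes with changed usage, 318 (40.9%) were also called for expression, against 37.8% of all genes tested for usage; the same genes are 18.9% of the 1686 called for expression. Among genes with a nearer 3′ site rising, 24 were higher and 16 lower in expression of 104, together 38.5%. For retained introns rising the counts were 25 higher and 25 lower of 117, together 42.7%. Over all genes tested for expression 34.2% were called, 17.1% each way, so these shares are to be read beside that background.

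For expression, 2992 of 8750 genes were called (34.2%, edgeR's quasi-likelihood test with Benjamini-Hochberg adjusted p under 0.05), 1492 higher in WT (17.1%) and 1500 lower (17.1%). Changes of at least 2-fold passed the test in 565 of the 8750 (6.46%). The 2 directions were of equal number but not of equal size. A log2 fold change of 2 or more was seen in 156 of the higher genes and in 15 of the lower, and 1052 of the lower genes changed by under 0.5. All 3 WT libraries lay on one side of all 3 GFP libraries in 4285 of 8750 genes (49.0%), so the absence of overlap alone is common here.

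The largest increases were in genes that GFP cells barely expressed. Cyp6d2, a cytochrome P450, stood at 0.067, 0.105 and 0.129 TPM in GFP and at 30.5, 34.3 and 30.3 TPM in WT, a log2 fold change of 8.24 ± 0.14 (SE) with an edgeR adjusted p of 7.1e-20. It overlaps the antisense gene nsr, which also rose, by 5.10 ± 0.43. Obp99a, an odorant-binding protein, rose from a mean of 1.38 to 74.1 TPM, Ugt302K1, a UDP-glycosyltransferase, from 0.565 to 22.0 TPM, and Tsf1, the iron carrier transferrin, from 0.353 to 10.7 TPM. Jabba, which anchors histones to lipid droplets, rose from 0.689 to 17.7 TPM but overlaps Cyp12b2 on the other strand, also higher.

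Muc68Ca, a mucin, rose by 3.56 ± 0.17 and sls, the titin-like muscle protein, by 2.88 ± 0.18 on the log2 scale (SE), both at low levels of at most 4.28 TPM in WT. CG8369, chosen after its values were seen, had 0 counts in every GFP library and 283, 257 and 278 in WT. Against a floor of 3 counts per library it was at least 82.7-fold higher.

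**Figure D3:**
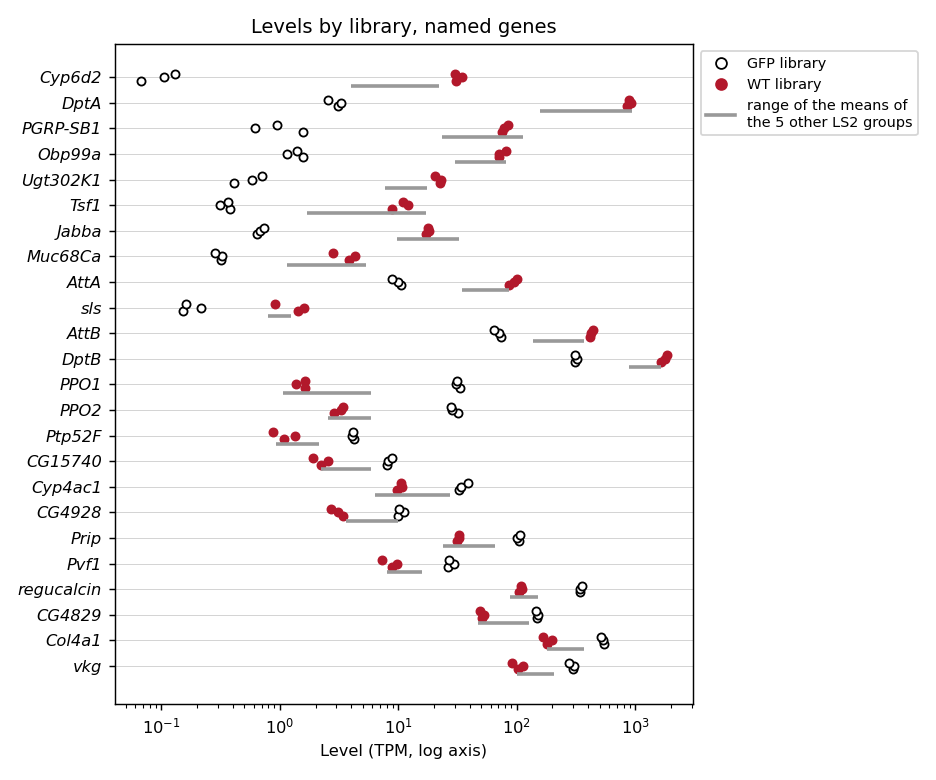
TPM on a log axis in each library for the 12 genes with the largest increase and the 12 with the largest decrease, open circles for GFP and red for WT, with a grey line for the range of the means of the 5 groups with altered LS2. These genes were chosen so that the groups do not overlap. For DptA the grey line runs from 156 to 941 TPM while GFP lies at 2.53 to 3.25 TPM.

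Most antimicrobial peptide genes rose. These are small secreted peptides, induced in fly fat body and hemocytes through the IMD pathway (Gram-negative peptidoglycan, PGRP-LC, the NF-kB factor Relish) and the Toll pathway (spz, Tl, the NF-kB factors Dif and dorsal). Of 14 measured, 13 rose and 0 fell in edgeR's test (0 fell also at an unadjusted p under 0.05 and by DESeq2), with a median log2 fold change of 2.08 beside -0.002 over all genes tested, and 13 rose in every alternative setting tried. The list was drawn up with earlier results of these libraries known. Over all 8750 genes 17.1% rose and 17.1% fell, and each count of list members below is to be read beside those shares.

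DptA, a diptericin, stood at 3.10, 3.25 and 2.53 TPM in GFP and at 861, 915 and 894 TPM in WT. Its neighbour DptB stood at 309, 324 and 311 against 1643, 1796 and 1855 TPM. Each group was tight and the groups were far apart, with log2 fold changes of 8.22 ± 0.15 for DptA (edgeR adjusted p 1.4e-19) and 2.52 ± 0.14 for DptB (SE, adjusted p 2.1e-11). DptB overlaps the antisense gene CG43109, higher by 3.69 ± 0.25.

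The attacins covered a wide range. AttC rose from 0.276, 0.275 and 0.280 TPM to 14.0, 16.3 and 14.52 TPM, a log2 fold change of 5.75 ± 0.27 (SE). AttA rose by 3.27 ± 0.13 and AttB by 2.62 ± 0.16, although these are near-identical copies between which reads may be divided uncertainly. AttD rose by 1.03 ± 0.09.

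Drosocin (Dro) rose from a mean of 190 to 790 TPM, metchnikowin (Mtk) from 36.3 to 108 TPM, drosomycin (Drs), the peptide best known as a Toll target, from 121 to 302 TPM, and defensin (Def), which overlaps magu on the other strand (higher by 1.12), from 0.482 to 3.67 TPM. Def was near the detection limit, with a mean of 13.7 estimated counts over the 6 WT and GFP libraries. Among cecropins, CecA1 was the most abundant, at 492, 525 and 570 TPM in GFP and 993, 865 and 983 TPM in WT, and CecC rose by 0.84 ± 0.14 on the log2 scale. CecA2 rose by 2.07 ± 0.24 but is close in sequence to CecA1. CecB was the member not called, with 62.9 ± 3.49 TPM (SD, n = 3) in GFP against 57.2 ± 2.44 in WT, adjusted p 0.33 by edgeR. PGRP-SB1, a secreted peptidoglycan recognition protein, rose by 6.29 ± 0.26, and edin, an infection-induced peptide chosen after its values were seen, rose from 126 to 582 TPM.

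Of 16 IMD pathway genes, 5 rose (31.2%), 2 fell (12.5%) and 9 were not called, with a median of 0.07, and the rises ran from 2 to 6 over the alternative settings. Relish itself (Rel) was at 132 ± 4.47 TPM (SD, n = 3) in GFP against 129.8 ± 5.95 in WT, with a log2 fold change of -0.01 ± 0.05 (SE). The negative feedback genes pirk and PGRP-LB rose by 0.47 ± 0.08 and 0.49 ± 0.08, and the co-receptor PGRP-SD fell by 0.23 on the log2 scale. However, PGRP-SD overlaps CG32373 on the same strand, with a log2 fold change of -1.27. The receptor PGRP-LC fell by 0.15, a call lost in 4 settings.

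In the Toll list 1 of 9 tested genes rose, dorsal (dl) by 0.34 ± 0.06, and 2 fell (22.2%). The larger of these was spz, the Toll ligand, at 450, 482 and 462 TPM in GFP and 259, 270 and 236 TPM in WT, a log2 fold change of -0.85 ± 0.05 (SE) with an edgeR adjusted p of 1.6e-11. The groups did not overlap. In the altered forms the mean of spz was between 310 and 415 TPM. Of the Bomanin and Daisho peptides, which are induced through Toll, 3 of 14 passed the count filter, 0 rose in edgeR's test (0 also at an unadjusted p under 0.05 and by DESeq2) and BomBc2 fell by 0.63, a call lost in 4 settings, with a median of 0.02.

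In the JAK-STAT list 4 of 8 tested members rose (50%) and 3 fell (37.5%). The cytokine upd3 rose by 0.73 ± 0.08 on the log2 scale, the pathway's feedback inhibitor Socs36E rose from 31.7, 36.4 and 37.3 TPM to 66.2, 68.1 and 56.5 TPM, and the stress peptide TotA rose from 1.30 ± 0.27 to 6.48 ± 0.73 TPM (SD, n = 3). The kinase hop fell by 0.32, the transcription factor Stat92E by 0.31 and the short receptor et, a negative regulator, by 1.25 on the log2 scale. JNK pathway genes had 0 rises and 2 falls among 10 in edgeR's test (1 rise at an unadjusted p under 0.05 and 0 by DESeq2), and egr, the fly TNF, went from 281, 294 and 278 to 141, 142 and 135 TPM, a log2 fold change of -1.0 ± 0.05 (SE).

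Most tested genes of hemocyte identity fell. Of 19 tested in a list of 23, 14 were lower in WT (73.7%, 11 to 14 genes over the alternative settings) and 3 higher (15.8%), with a median log2 fold change of -0.70. The prophenoloxidases of crystal cells, which start melanization, changed most. PPO1 stood at 33.1, 30.8 and 31.5 TPM in GFP and at 1.62, 1.36 and 1.63 TPM in WT, and PPO2 at 32.2, 28.7 and 28.0 against 2.87, 3.28 and 3.44 TPM.

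Their log2 fold changes were -4.33 ± 0.11 for PPO1 and -3.16 ± 0.12 for PPO2 (SE), with edgeR adjusted p of 4.3e-17 and 7.3e-14. In the 5 groups with altered LS2, PPO1 had means of 1.07 to 5.84 TPM, which also lie below GFP. The crystal cell factor lz was near the detection limit, at 0.282 ± 0.038 TPM (SD, n = 3) without LS2 and 0.097 ± 0.025 with it. In bulk RNA, fewer cells that express a gene and less RNA per cell cannot be told apart.

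Other hemocyte genes fell by less. Pxn went from 503, 495 and 476 TPM to 219, 228 and 205 TPM, Hemese (He), which overlaps NimB5 on the other strand (also lower), fell by 1.0 and hemolectin (Hml) by 0.73 on the log2 scale. The lineage factor srp (log2 fold change -0.03 ± 0.08, SE) and crq (-0.03 ± 0.05) were not called. On the other strand Pxn overlaps CG16986 (higher by 0.40) and crq overlaps ex (lower). The thioester proteins Tep2 and Tep4, which bind to pathogens, rose by 0.59 ± 0.06 and 0.57 ± 0.06.

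The basement membrane shared in the decrease. Col4a1 and vkg, which encode the collagen IV chains from a shared promoter region on chromosome 2L, stood at 548, 534 and 511 TPM and at 297, 301 and 277 TPM in GFP. In WT they stood at 180, 199 and 166 TPM and at 103, 114 and 91.4 TPM. Both fell by close to the same amount, 1.48 and 1.45 on the log2 scale.

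Of 16 tested genes for myosin, actin and extracellular matrix, 10 fell (62.5%) and 0 rose in edgeR's test (1 rose at an unadjusted p under 0.05 and 1 by DESeq2), with a median of -0.30. The laminin chains LanB1 and LanB2 fell by 0.45 and 0.51, the matrix protease Mmp2 by 0.87 and the cytoplasmic actin Act5C by 0.44 on the log2 scale. Pxn and the collagen genes belong to both lists.

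Among the remaining genes with large decreases, regucalcin, a calcium-binding protein, went from 344, 341 and 359 TPM to 105, 111 and 109 TPM. Prip, an aquaporin, went from 104 ± 3.04 to 32.1 ± 0.59 TPM (SD, n = 3), and Pvf1, the ligand related to PDGF and VEGF that acts on hemocytes, from 27.5 ± 1.77 to 8.64 ± 1.26. The receptor phosphatase Ptp52F fell by 1.91, the cytochrome P450 Cyp4ac1 by 1.75, and CG15740, CG4928 and CG4829 by 1.87, 1.75 and 1.51 on the log2 scale. Regucalcin, Pvf1, CG15740, CG4928 and CG4829 are X-linked, 5 of the 12 largest decreases.

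X-linked genes were shifted as a group. Of 1480 tested on X, 139 were higher in WT (9.39%) and 450 lower (30.4%), and their median log2 fold change was -0.13, against 0.01 to 0.03 on the large autosomal arms. X held 16.9% of tested genes, 30% of the lower calls and 9.32% of the higher calls. The median of X minus that of the autosomes, each gene relative to its mean over the 21 libraries, was 0.128, 0.104 and 0.081 in GFP replicates 1 to 3 and -0.033, -0.038 and -0.041 in WT. The groups did not overlap, and the difference of -0.14 gave p = 0.1 in the same exact permutation test, the lowest it can give. Copy number of X in these lines was not tested and cannot be told apart from the construct. The same quantity lay between -0.081 and 0.052 in the libraries with altered LS2, so that every LS2 library was below every GFP library.

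**Figure D4:**
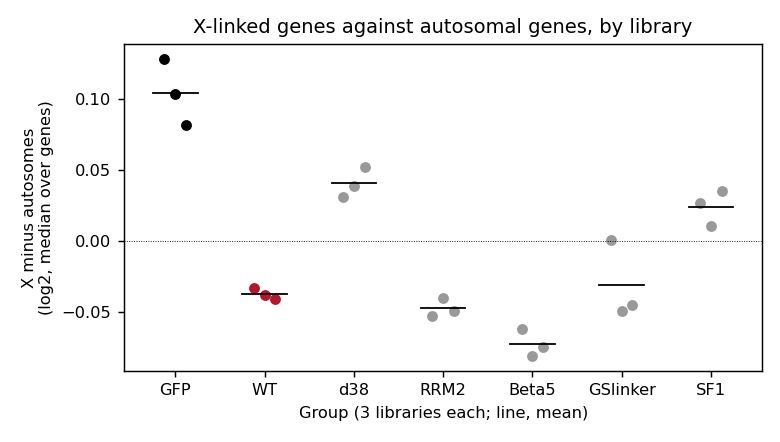
Median over X-linked genes minus median over autosomal genes (log2, each gene relative to its mean over 21 libraries) for each library, 3 points per group with a line at the mean. GFP lies at 0.081 to 0.128 and WT at -0.041 to -0.033, and the groups with altered LS2 (grey) lie between -0.081 and 0.052.

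Of 10 apoptosis genes tested, 5 rose (50%, 3 to 7 genes over the alternative settings) and 1 fell (10%), with a median of 0.21. The inhibitor-of-apoptosis antagonist rpr stood at 6.35, 8.21 and 7.57 TPM in GFP and 28.2, 31.1 and 27.8 TPM in WT, and hid, of the same family, at 1.89, 2.21 and 2.11 against 6.86, 6.56 and 4.95 TPM. All WT libraries were above GFP for both, with log2 fold changes of 1.97 ± 0.21 and 1.64 ± 0.17 (SE). Their regulator p53 rose by 0.73 ± 0.06 but overlaps Gr94a on the other strand (higher by 1.08), and the pro-apoptotic Bcl-2 protein Debcl fell by 0.29.

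Of 22 genes for oxidative stress defence, 9 rose (40.9%) and 4 fell (18.2%), with a median of 0.12. The extracellular superoxide dismutase Sod3 rose from 0.203 to 6.05 TPM and the glutathione transferase GstE1 from 0.195 to 2.58 TPM, log2 fold changes of 4.85 ± 0.26 and 3.74 ± 0.28 (SE). Both were low, with means of 67.5 and 27 estimated counts over the 6 WT and GFP libraries, so these fold changes rest on few counts in GFP. GstD1 rose by 0.46 ± 0.13, though members of the GstD cluster are similar in sequence. Of the genes for glutathione synthesis, Gss1 fell by 0.43 and Gclc rose by 0.38 ± 0.11, a call lost without WT replicate 2.

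In the unfolded protein and ATF4 list 4 of 13 rose (30.8%) and 0 fell in edgeR's test (2 fell at an unadjusted p under 0.05 and 1 by DESeq2). Thor, the 4E-BP brake on translation, rose from 31.6, 34.95 and 34.8 to 74.7, 77.1 and 75.6 TPM, and the asparagine synthetase AsnS from 52.8, 57.1 and 55.0 to 118, 121 and 116 TPM. Both are known ATF4 targets, and both were tight within groups. Among heat shock genes and chaperones 5 of 20 rose (25%, 3 to 9 genes over the alternative settings) and 2 fell (10%), including stv (0.84 ± 0.11), Hsp22 (0.50 ± 0.12) and the mitochondrial Hsp60A (-0.45 ± 0.06).

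Because copper was the inducer, copper genes are a check on how the lines met it. MtnA, the main metallothionein, stood at 19520, 21758 and 21474 TPM in GFP and at 15158, 13444 and 14565 TPM in WT, lower by 0.52 on the log2 scale (edgeR adjusted p 5.1e-05). The copper importer Ctr1A fell by 0.47. In all, 5 of 11 tested genes for copper handling were lower (45.5%) and 1 higher, with 2 to 5 and 0 to 3 over the alternative settings. Of the lower genes 2 are on X, Ctr1A among them. The part of the copper genes in the other results was not tested.

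U2af50, the relative of LS2, fell from 81.9 ± 1.51 to 65.1 ± 1.62 TPM (SD, n = 3), a log2 fold change of -0.27 ± 0.06 (SE), and is X-linked. SF1 rose by 0.43 ± 0.05, hfp, which acts with U2AF on pyrimidine tracts, by 0.48 ± 0.05, and Caper, a U2AF-related protein, by 0.21 ± 0.05. These were the 3 higher and 1 lower calls among 17 genes for U2AF and branch-site recognition. Among SR proteins and their kinases 1 of 13 rose, the sex determination gene tra by 0.47 ± 0.12, and 2 fell. Of 26 hnRNP and related regulators 3 rose (11.5%) and 2 fell (7.69%), with 2 to 9 and 0 to 5 over the alternative settings.

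Genes for the exon junction complex and nonsense-mediated decay gave 3 higher and 3 lower calls of 13, 23.1% each way. The endonuclease Smg6 rose by 0.46 ± 0.06 and Gadd45, an mRNA that decay is known to keep low in flies, by 0.56 ± 0.09. Upf1 and the kinase nonC fell by 0.25 and 0.46, and all 3 lower genes are on X. The nonC gene overlaps mAChR-C on the other strand, also lower.

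The large housekeeping groups had small medians. Mitochondrial ribosomal proteins gave 8 rises and 5 falls of 73, all 5 on X (0 to 13 and 4 to 10 over the alternative settings), ribosome biogenesis 4 and 1 of 24 (1 to 5 and 0 to 4), histones 1 and 2 of 45, and the ecdysone response 1 and 2 of 15. Of 71 nuclear genes of oxidative phosphorylation 19 fell and 1 rose (median -0.16), of 36 proteasome genes 7 fell and 0 rose in edgeR's test (-0.13; 0 rose at an unadjusted p under 0.05 and by DESeq2), and of 88 cytosolic ribosomal protein genes 10 rose and 1 fell (0.04). Over the alternative settings the falls ran from 6 to 31 and from 4 to 19 in the first of these lists and the next, and the ribosomal protein rises from 2 to 19. DNA replication genes gave 4 rises (13.3%) and 10 falls (33.3%) of 30, with RnrS down by 0.35 and RnrL up by 0.26, and cell cycle genes 0 rises and 5 falls of 21 in edgeR's test (1 rise at an unadjusted p under 0.05 and 0 by DESeq2), with the phosphatase stg down by 0.46 and CycE by 0.36.

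**Figure D5:**
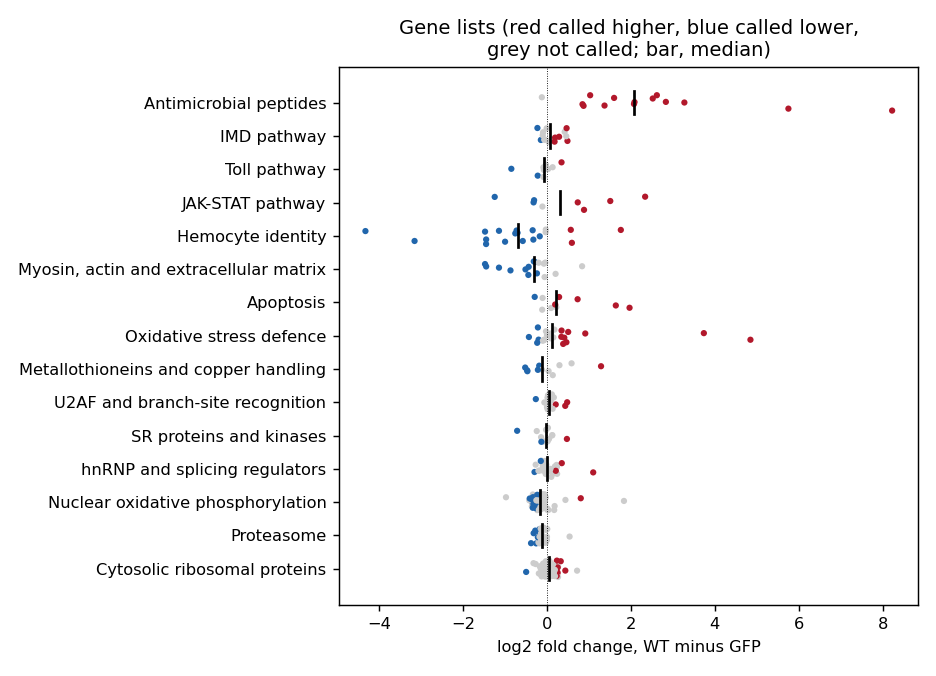
Log2 fold change, WT minus GFP, for the tested members of 15 gene lists, with red points called higher, blue called lower, grey not called, and a black bar at the median. The antimicrobial peptides have a median of 2.08 and hemocyte identity genes of -0.70, and the other medians shown lie between -0.30 and 0.31.

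Since LS2 is known from the testis, genes of spermatocyte differentiation were examined, and markers of other tissues were used to check the label of the line. Of 30 testis genes 11 passed the count filter, 2 rose and 1 fell. The transcripts of Mst87F, aly and dj, which mark spermatocytes, were at or near 0 TPM in all 6 libraries, at most 0.313. The germline gene osk rose from 2.52, 3.15 and 2.87 to 10.2, 11.4 and 9.94 TPM, and the RNA-binding protein elav, a neuronal marker, from a mean of 1.91 to 2.88 TPM with some overlap in TPM, though elav overlaps arg on the other strand (lower). Among 10 tested markers of neurons, muscle, germline and follicle cells 3 rose and 1 fell, and Mhc, Act57B and up, of muscle, were at most 0.064 TPM. The list also holds Mef2 for muscle, whose level is not given here, and the muscle gene sls, outside the list, rose as described above. In the small RNA list, aub rose by 0.73 ± 0.06 and Dcr-2 fell by 0.33, with 4 rises (28.6%) and 2 falls (14.3%) among 14. Dcr-2 overlaps Rab4 on the other strand (higher by 0.33).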

How the data were processed

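Polyadenylated RNA was measured in 21 S2 cell libraries, 3 per construct. The submitters' processing notes name STAR and kallisto and the builds dm6 and BDGP6, without roles. Per the file headers, the deposited tables give the authors' estimated counts (expected counts, not whole, not scaled between libraries) and TPM for 30594 transcripts, with lengths and effective lengths. Estimated counts divide ambiguous reads among similar transcripts, so copies and isoforms are inferred, and the counting strand is not given in the sources used here. TPM shares do not carry depth.

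Of the transcripts, 30242 (98.8%) matched Ensembl release 115 of BDGP6, and 30055 had equal length; only those built the events. Coordinates are from that annotation. Counts were rounded, summed per gene and tested in R 4.3.3 by the quasi-likelihood test of edgeR 4.0.16 (TMM factors 0.958 to 1.05, filterByExpr minimum 10, all 21 libraries, 14 residual degrees of freedom). SE is the log2 fold change over the square root of F. Isoform shares and event inclusion were tested with limma 3.58.1 on log2((x + 0.01) / (1 − x + 0.01)), with an event minimum of 50 counts and 1% to 99% mean inclusion. P-values were adjusted over all features, threshold 0.05. LS2 used log2(TPM + 1). The edgeR expression test, limma on shares and on events, and the edgeR F test for usage were run on simulated counts. The permutation test, the DESeq2 test, limma on TPM and the edgeR Simes test were not. Each transcript was simulated on its own, without ambiguous reads.

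Named genes are the 12 largest called changes each way with at least 10 CPM and no overlap between groups, LS2 apart, 10 isoform genes with at least 500 counts, 3 events per class with at least 200 counts, and list members. CG8369, edin and the overlapping genes were chosen after their values were seen. The members and lists were chosen with earlier results of these data known.

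The alternatives were DESeq2 1.42.0 size factors and test, no filter, other offsets and minimums, the groups alone or 12 libraries, effective-length scaling, limma on TPM, a replicate block and leaving out each library. The 12 libraries are those of GFP, WT, d38 and RRM2, which share a pattern of effective length.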

Additional observations from a re-analysis of the deposited data

How the results depend on the processing

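Of 96 called genes named by value, 93 kept the call and direction in all 14 alternatives, and PGRP-LC, BomBc2 and Gclc lost it in at least 1. Of 28 isoforms and events, 6 did. Called genes numbered 2992 and went from 2314 to 2719 without 1 library (1143 to 1308 higher, 1129 to 1448 lower, 516 to 561 at least 2-fold), with 2631 by limma on TPM and 3889 with 12 libraries. Genes with changed isoform usage went from 578 to 693 and events from 729 to 897 without 1 library. With the 2 groups alone, expression calls were 3132, usage calls 448 and event calls 391, and the cause was not tested. The edgeR Simes test called 340 usage genes and its F test 854. On simulated counts the F test had given many false calls, which is why limma on shares was the main test. How far this accounts for the difference was not tested. The share of higher calls was 44.0% by limma on TPM against 49.9%. The LS2 difference lay between 10.80 and 11.31 without 1 library. Deviations of log CPM from the group mean correlated at -0.023, 0.018 and 0.055 between same-numbered WT and GFP libraries. Between differently numbered libraries they correlated at -0.062 to 0.054. The numbers thus gave no sign of pairing, but with 3 libraries per group this check is weak and cannot exclude it. With a replicate block, 2901 genes, 713 usage genes and 901 events were called, and the LS2 difference was 10.97. Genes that were not called changed sign near 0. The log2 fold change was 0.00745 for expression of Rel with the 2 groups alone and, for expression of wdb, 0.0755 with effective-length scaling and 0.0561 by limma on TPM, and without 1 library that for expression of srp ran between -0.0864 and 0.00966 and that for expression of crq between -0.0758 and 0.000785. Depth was not varied, and genes under the count filter were not tested.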

Other observations

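Among 758 tested cassette exons inside the coding span whose length is a multiple of 3, inclusion rose in 72 and fell in 52, and among 90 others it rose in 2 and fell in 8. For alternative 3′ sites in the coding span the counts were 57 and 32 among 848 pairs a multiple of 3 apart and 3 and 2 among 45 others. No test of these differences was made.

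Of 827 genes with no intron 14.6% were higher in WT and 12.1% lower, of 3036 with 1 to 2 introns 15.02% and 14.92%, of 2769 with 3 to 5 introns 19.0% and 17.7%, and of 2118 genes with 6 or more introns 18.4% were higher and 21.5% lower, with no test of the difference. Genes of chromosome 4, the small chromosome, had a median log2 fold change of 0.12 over 70 genes, but their median against the autosomes ranged from -0.359 to -0.191 among GFP libraries and from -0.267 to 0.009 among WT libraries, which overlap.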
